A study of Macaca mulatta with 9 samples.

Results

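The genes described here encode the contractile apparatus of smooth muscle and proteins tied to it, the sarcolemma, the attachment plaques and the glycogen store. Of 10 genes sought, 9 had a probe on the array, among 20217 probes in all. LMOD1, TPM2, SGCA, PDLIM7 and PYGM were found by symbol in the authors' table of fold changes, and ACTA2, DES, TAGLN and CNN1 by the human RefSeq accession of their probe. The accession of MYH11, the smooth muscle myosin heavy chain, was not on the array and the gene was not analysed here. Each gene had 1 probe, printed in 2 spots per array.

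The samples were total RNA from frozen prostate of 9 rhesus monkey (Macaca mulatta) offspring, 1 Agilent 1-colour array per animal and 3 animals per group. The dioxin TCDD, an agonist of the aryl hydrocarbon receptor, or its vehicle was injected under the skin of the dams on gestation day 20. Each following injection, given every 30 days up to day 90 after delivery, held 5% of the first dose. The vehicle group received injections on the same plan, and the exposed groups started from 30 or 300 ng/kg. The offspring were necropsied 7 years later, and the labelling reactions started from 0.5 ug of RNA. The study title names disruption of the gland and fibrosis, so the comparisons here ask how the muscle genes of the stroma stood at each dose. The arrays are of whole tissue, in which fewer cells of a type and less RNA per cell cannot be told apart.

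Smooth muscle cells make up much of the prostate stroma and contract to expel secretions. In them actin, tropomyosin, calponin, transgelin and leiomodin form and regulate the thin filaments, and desmin intermediate filaments tie the apparatus to dense bodies and the membrane. At the sarcolemma the dystrophin complex, which includes the sarcoglycans, links the cytoskeleton to laminin in the surrounding matrix. DES, SGCA and PYGM are also well known from skeletal muscle, so they do not mark smooth muscle alone.

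Levels are the log2 of the processed signal of a probe divided by the array's 75th percentile (log2 scaled signal). A difference of 1 on this scale is a 2-fold difference, and levels of different probes are not set against each other. Differences come from limma fitted to all 9 arrays, with Benjamini-Hochberg adjustment over 15160 tested probes and a threshold of 0.05. That threshold was passed by 0% of tested probes in each of the 3 comparisons, and so by none of the muscle genes. The smallest adjusted p over all probes in limma was 0.946 for 30 ng/kg against vehicle, 0.158 for 300 ng/kg against vehicle and 0.104 for 300 against 30 ng/kg. Both dose comparisons use the same vehicle arrays. The 5 genes found through the authors' table entered it by a selection on these same arrays, so their differences are given as descriptions.

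The arrays differed in brightness along with the groups. The 75th percentile lay between 514 and 1193 signal units on the vehicle arrays, between 343 and 1356 on the 30 ng/kg arrays and between 1258 and 2374 on the 300 ng/kg arrays. Slide 1 held 2 vehicle arrays, slide 2 held 1 vehicle array and 2 arrays of 30 ng/kg, and slide 3 held 1 array of 30 ng/kg and all 3 of 300 ng/kg. No slide carried both vehicle and 300 ng/kg. The extraction program marked 63.9 to 83.9% of spots well above background, and it did so for all 18 spots of each of the 9 muscle genes, none of which was saturated.

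At 300 ng/kg all 9 genes had a lower mean than in the vehicle group, with log2 differences of -0.35 (ACTA2) to -1.74 (SGCA). The exception lay in the scaling: under quantile normalization ACTA2, DES and TAGLN stood above vehicle. The median difference of the 9 was -0.80, against -0.0059 over all tested probes. All 3 arrays of 300 ng/kg lay below all 3 vehicle arrays in 8 of the 9 genes, as they did for 11.2% of tested probes, while 50.4% of tested probes had a difference below 0. An unadjusted p under 0.05 in the lower direction was found for 6 genes, against 8.17% of tested probes. The 4 genes found by accession were not picked through the authors' table, but were chosen with earlier results of these data known. Of these, 4 had a lower mean, 3 (CNN1, DES and TAGLN) did not overlap with vehicle, and 1 (CNN1) had such a p. DES and TAGLN followed nearly the same profile over the arrays (Pearson's r 0.999), so they are not separate observations.

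**Figure D1:**
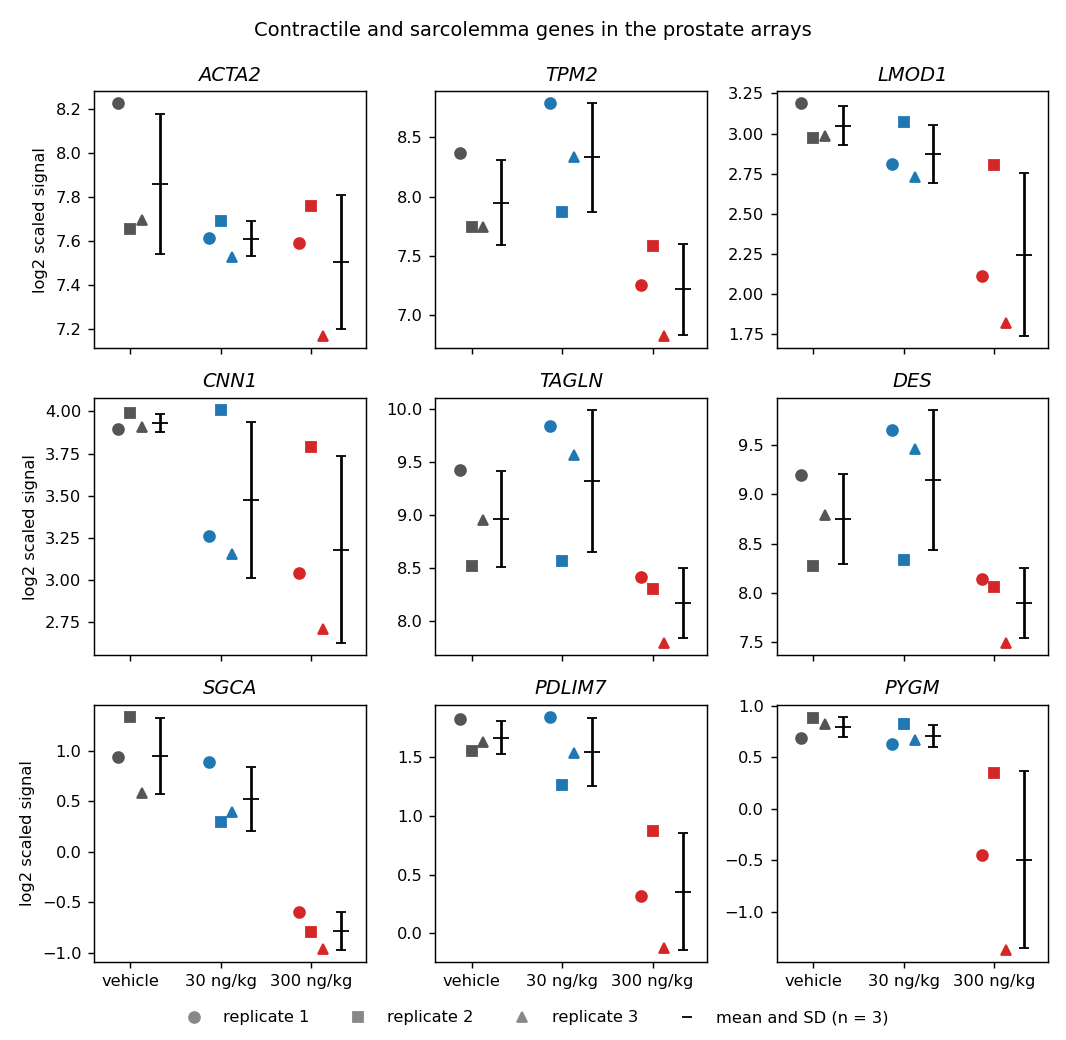
Log2 scaled signal of the 9 muscle genes on every array (vertical axis, own range in each panel) by dose group, with symbols for the replicate and bars for mean and SD (n = 3). Only in ACTA2 do the 300 ng/kg arrays overlap with vehicle, and 300 ng/kg replicate 3 is the lowest array in every panel; the scaling matters for ACTA2, DES and TAGLN, whose means stand above vehicle under quantile normalization.

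Among the thin filament genes, ACTA2 encodes smooth muscle alpha actin, the main actin of these cells. Its level was 8.23, 7.65 and 7.70 on the vehicle arrays, 7.61, 7.69 and 7.53 at 30 ng/kg, and 7.59, 7.76 and 7.17 at 300 ng/kg. Vehicle replicate 1 stood high and 300 ng/kg replicate 3 low, and the other arrays of all groups lay close together. The means were 7.86 ± 0.32, 7.61 ± 0.081 and 7.51 ± 0.31 (SD, n = 3 each). The difference at 300 ng/kg was -0.35 ± 0.25 (SE), with a 95% interval of -0.91 to 0.20 (adjusted p in limma 0.475), and its groups overlapped. Without vehicle replicate 1 it was -0.17, and without 300 ng/kg replicate 3 it was -0.18.

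TPM2 encodes beta tropomyosin, which lies along the actin filament. Its level was 8.37, 7.74 and 7.74 in the vehicle group, 8.79, 7.87 and 8.33 at 30 ng/kg, and 7.25, 7.58 and 6.82 at 300 ng/kg. The 30 ng/kg group had the highest mean and overlapped with vehicle, while every 300 ng/kg array lay below both other groups. Relative to vehicle it differed by -0.73 ± 0.32 (SE; adjusted p in limma 0.318) at 300 ng/kg and 0.38 ± 0.32 (adjusted p in limma 0.946) at 30 ng/kg. Between the doses it was -1.11 ± 0.32 (adjusted p in limma 0.161).

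LMOD1 encodes leiomodin, an actin nucleator of smooth muscle. Its level was 3.19, 2.97 and 2.98 in the vehicle group, 2.81, 3.07 and 2.73 at 30 ng/kg, and 2.11, 2.80 and 1.82 at 300 ng/kg. The 300 ng/kg arrays lay below vehicle, but replicate 2 of that dose fell inside the range of 30 ng/kg. The difference from vehicle was -0.80 ± 0.28 (SE; 95% interval -1.43 to -0.18; adjusted p in limma 0.283) at 300 ng/kg and -0.18 ± 0.28 at 30 ng/kg.

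CNN1 encodes calponin, an actin-binding inhibitor of the myosin ATPase. Its level was 3.89, 3.99 and 3.91 in the vehicle group, the tightest spread of the set (SD 0.054). At 30 ng/kg it was 3.26, 4.01 and 3.16, and at 300 ng/kg 3.04, 3.79 and 2.71. In both exposed groups replicate 2 was close to vehicle and the other arrays stood lower. CNN1 differed from vehicle at 300 ng/kg by -0.75 ± 0.33 (SE; adjusted p in limma 0.318), and at 30 ng/kg by -0.46 ± 0.33 (adjusted p in limma 0.946). The doses differed by -0.30 ± 0.33, with overlapping groups.

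TAGLN, which encodes transgelin, an actin-bundling protein and early marker of smooth muscle, stood at 9.42, 8.52 and 8.95 in the vehicle group. The 30 ng/kg arrays read 9.84, 8.57 and 9.56, and the 300 ng/kg arrays 8.41, 8.31 and 7.79. The 300 ng/kg arrays were the 3 lowest, but the gap to the nearest arrays of the other groups was small beside the spread within them. The difference from vehicle was -0.79 ± 0.38 (SE; 95% interval -1.65 to 0.060; adjusted p in limma 0.339) at 300 ng/kg, and 0.36 ± 0.38 at 30 ng/kg.

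DES encodes desmin, the intermediate filament protein of muscle. Its level was 9.19, 8.27 and 8.79 in the vehicle group, 9.65, 8.33 and 9.45 at 30 ng/kg, and 8.14, 8.06 and 7.49 at 300 ng/kg. The arrays took the same order as in TAGLN, and Pearson's r between these genes over the 9 arrays was 1.00. Desmin at 300 ng/kg differed from vehicle by -0.85 ± 0.39 (SE; 95% interval -1.75 to 0.038; adjusted p in limma 0.331), and at 30 ng/kg by 0.39 ± 0.39.

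SGCA encodes alpha-sarcoglycan, a membrane protein of the dystrophin complex. Its level was 0.94, 1.33 and 0.58 in the vehicle group, 0.89, 0.30 and 0.39 at 30 ng/kg, and -0.59, -0.80 and -0.96 at 300 ng/kg. The 300 ng/kg arrays lay well apart from the other 6, and the 30 ng/kg arrays overlapped with vehicle. At 300 ng/kg SGCA differed from vehicle by -1.74 ± 0.27 (SE; 95% interval -2.34 to -1.13; adjusted p in limma 0.216), the largest of the 9 genes. At 30 ng/kg it was -0.43 ± 0.27 (adjusted p in limma 0.946).

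The 2 spots of SGCA disagreed on 1 array. On 300 ng/kg replicate 2 they read 150 and 1707 signal units, a ratio of 11.4, and the extraction program flagged neither. In the other 80 pairs of a muscle gene and an array the ratio reached at most 1.20. Over the whole array set a ratio over 5 was found in 27 of 111865 probe and array pairs (0.0241%) in which both spots read over 50 units. With the higher spot alone, an alternative chosen after seeing the data, the SGCA difference was -1.44 (adjusted p in limma 0.267) against vehicle and -1.02 (adjusted p in limma 0.173) against 30 ng/kg. That spot stood at 0.083 on the log2 scaled axis, still below the lowest array of either other group.

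**Figure D2:**
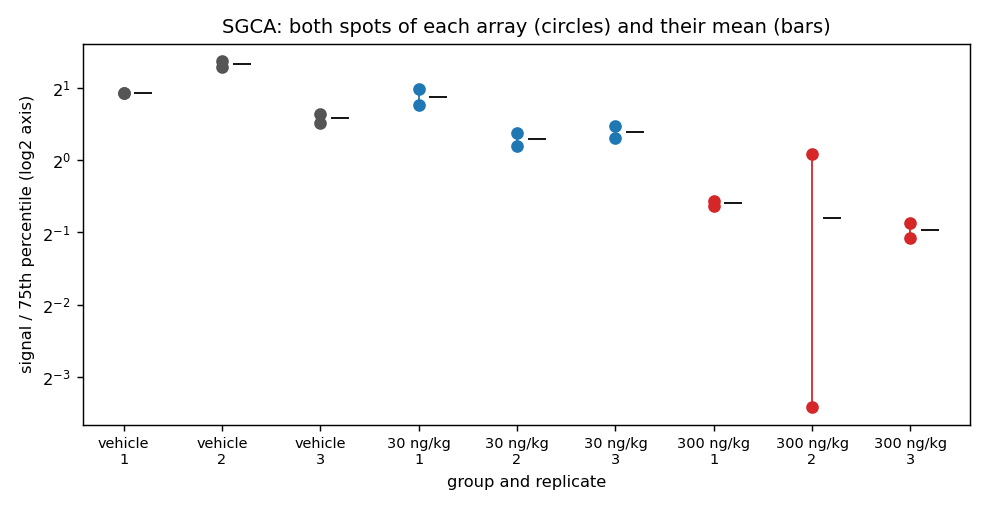
Scaled signal of both SGCA spots (circles) on each array and their mean (bars) on a log2 vertical axis, by group and replicate. The spots of 300 ng/kg replicate 2 differ by a ratio of 11.4, and the higher one still lies below every vehicle and 30 ng/kg mean.

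PDLIM7 encodes a PDZ and LIM domain adaptor found on actin filaments. Its level was 1.82, 1.55 and 1.62 in the vehicle group, 1.84, 1.26 and 1.53 at 30 ng/kg, and 0.32, 0.87 and -0.12 at 300 ng/kg. Every 300 ng/kg array lay below the other 6, and the spread within that group (SD 0.50) was larger than in vehicle (SD 0.14). The difference from vehicle was -1.31 ± 0.29 (SE; 95% interval -1.96 to -0.66; adjusted p in limma 0.267) at 300 ng/kg and -0.12 ± 0.29 at 30 ng/kg.

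PYGM encodes muscle glycogen phosphorylase, which frees glucose 1-phosphate from glycogen. Its level was 0.69, 0.88 and 0.82 in the vehicle group and 0.63, 0.83 and 0.67 at 30 ng/kg. The 300 ng/kg arrays read -0.45, 0.34 and -1.37. The vehicle and 30 ng/kg arrays lay together, and the 300 ng/kg arrays lay below them with a wide spread (SD 0.86). The difference from vehicle was -1.29 ± 0.38 (SE; 95% interval -2.14 to -0.43; adjusted p in limma 0.267) at 300 ng/kg and -0.090 ± 0.38 at 30 ng/kg.

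Group means take the same directions in the authors' deposited table for the 5 genes it holds. That table was made from these same arrays, and the method of its normalization is not stated. Its folds are nearly those found here, which for the higher dose were 3.33 (SGCA), 2.48 (PDLIM7), 2.44 (PYGM), 1.75 (LMOD1) and 1.66 (TPM2) down. The match is therefore not a separate check of the differences. In the authors' deposited table SGCA is down 3.33-fold at 300 ng/kg and 1.35-fold at 30 ng/kg. PDLIM7 is down 2.47-fold and PYGM 2.44-fold at 300 ng/kg in the authors' deposited table, with 1.09-fold and 1.07-fold down at 30 ng/kg. LMOD1 is down 1.75-fold at 300 and 1.13-fold at 30 ng/kg, and TPM2 down 1.66-fold at 300 ng/kg and up 1.30-fold at 30 ng/kg, per the authors' deposited table.

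At 30 ng/kg the group as a whole lay near vehicle. A lower mean was found in 6 genes and a higher one in 3 (DES, TPM2 and TAGLN), against 47.6% of tested probes below 0. All 9 genes overlapped with vehicle, so 0 lay wholly below it, compared with 4.45% of tested probes. None had an unadjusted p under 0.05 in the lower direction, compared with 1.83% of tested probes, and the differences ran from -0.46 to 0.39 with a median of -0.12 (0.021 over all tested probes). By group mean the order was vehicle, 30 ng/kg and 300 ng/kg from high to low in 6 genes, and 30 ng/kg, vehicle and 300 ng/kg in 3. Between vehicle and 30 ng/kg arrays of the same replicate number, DES, TPM2 and TAGLN were higher at 30 ng/kg in 3 of 3 pairs, SGCA and PYGM lower in 3 of 3, and the other genes lower in 2 of 3. In a limma fit of these 2 groups with the number as a block, added after seeing the data, adjusted p-values of the muscle genes lay between 0.629 and 0.899. The first and second group in either order did not differ beyond their spread in any gene.

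Between the exposed groups all 9 genes were lower at 300 than at 30 ng/kg, with log2 differences of -0.11 (ACTA2) to -1.31 (SGCA), where 51.7% of tested probes were below 0. For ACTA2 this direction was lost under each of the other scalings run (normexp, quantile, median and cyclic loess) and for DES and TAGLN under quantile normalization, as given with the processing alternatives. The groups did not overlap in 6 genes, SGCA, PDLIM7, PYGM, TPM2, DES and TAGLN, as in 14.4% of tested probes. An unadjusted p under 0.05 in the lower direction was found in 7 genes, against 12.5% of tested probes. These were all 5 genes of the authors' table, which was selected on these same arrays, and 2 of the 4 found by accession (DES and TAGLN). The median difference was -1.15 for the 9 genes and -0.029 over all tested probes.

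**Figure D3:**
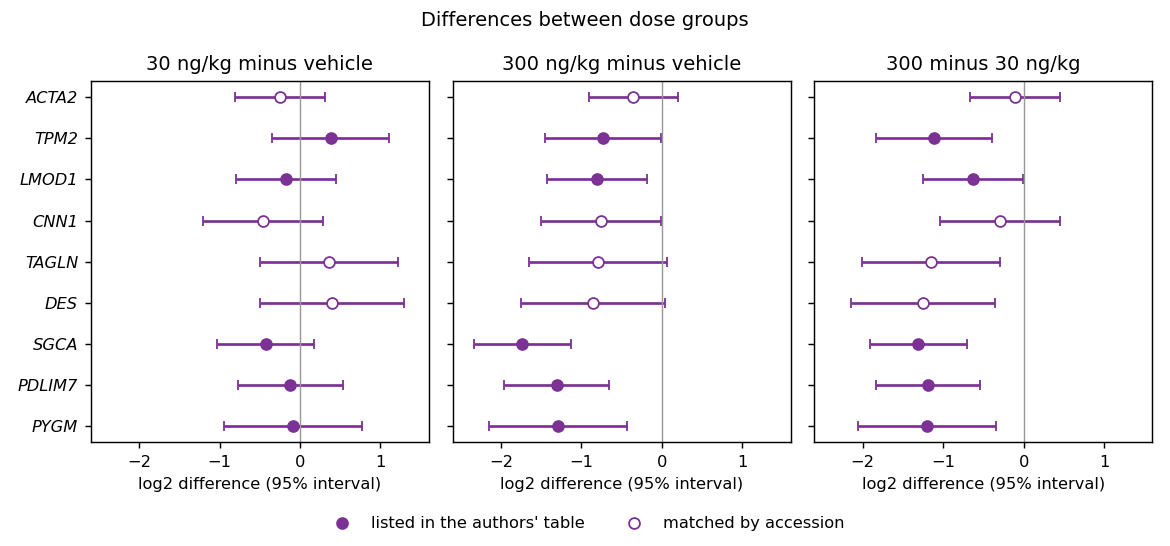
Log2 differences (points) with 95% intervals (bars) from limma for the 9 muscle genes in the 3 comparisons; filled points are genes found through the authors' table, open points genes found by accession. At 300 ng/kg against vehicle all 9 points lie below 0, from -1.74 (SGCA) to -0.35 (ACTA2), while at 30 ng/kg every interval includes 0; under quantile normalization ACTA2, DES and TAGLN lie above 0 at 300 ng/kg against vehicle.

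Array brightness was set beside the signal of the brightest genes. Of 20217 probes, TAGLN had the 2nd brightest, DES the 4th, TPM2 the 11th and ACTA2 the 13th, and all 18 spots of each were read from the low-gain scan. Over the 9 arrays the 75th percentile varied 6.92-fold from the dimmest to the brightest array, whereas the unscaled signal of DES varied 1.72-fold, that of TAGLN 1.92-fold and that of TPM2 2.71-fold. ACTA2 varied 5.21-fold, nearer to the arrays themselves, and the dimmer PDLIM7 3.32-fold, while the remaining genes varied 4.54-fold (PYGM) to 6.90-fold (CNN1). After scaling, DES, TAGLN and TPM2 were highest on the dimmest array and lowest on the brightest. Pearson's r of the scaled level with the log2 75th percentile was -0.99 for DES and TAGLN and -0.91 for TPM2. Among the dimmer genes it was -0.78 for PDLIM7, -0.65 for SGCA, -0.58 for PYGM, -0.48 for LMOD1 and -0.049 for CNN1, and for ACTA2 -0.39. Brightness and dose group ran together over these arrays, so r does not separate them. The brightest TAGLN spot reached 88.1% of the lowest saturation signal.

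Before scaling, these genes stood higher at 300 ng/kg. The unscaled DES signal was 340623 ± 35872 units (SD, n = 3) in the vehicle group and 403943 ± 42906 at 300 ng/kg. That of TAGLN was 395567 ± 42882 and 488661 ± 52333. The unscaled SGCA signal was lower at 300 ng/kg, at 993 ± 199 units against 1729 ± 1113, with PDLIM7 at 2233 ± 688 against 2588 ± 842. Unscaled signals carry the brightness of the array, so these values describe the arrays and not RNA levels.

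**Figure D4:**
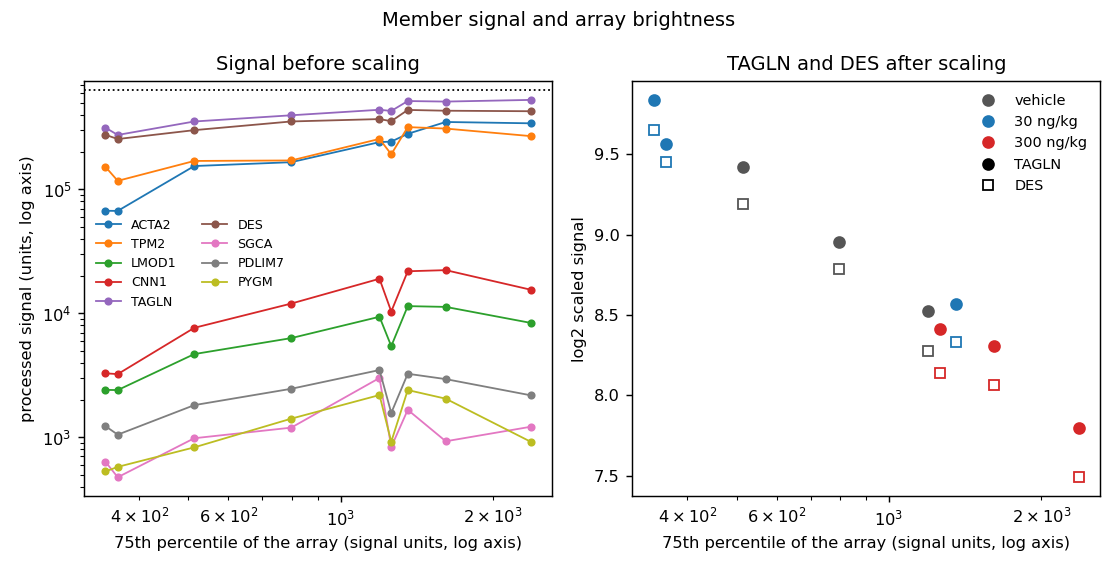
Left, unscaled processed signal of the 9 muscle genes (log axis) against the 75th percentile of each array (log axis), with the lowest saturation signal dotted; right, log2 scaled signal of TAGLN and DES against the same percentile, coloured by group. DES varies 1.72-fold before scaling while the percentile varies 6.92-fold, and its scaled level is lowest on the brightest array.

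The 100 brightest probes as a whole also differed by group. Of these, 64% were below 0 at 300 ng/kg against vehicle (median -0.21), 72% at 300 against 30 ng/kg (median -0.44), and 23% at 30 ng/kg against vehicle (median 0.21). The differences of TAGLN, DES and TPM2 were further below 0 than these medians at 300 ng/kg. Their unscaled signal also varied less over the arrays (1.92-fold, 1.72-fold and 2.71-fold) than that of the 100 probes (median 5.21-fold), so the 2 sets are not alike. The part of array brightness in the differences was not tested.

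Other scaling choices moved the genes unequally. Under quantile normalization the differences from vehicle at 300 ng/kg were 0.18 for TAGLN, 0.019 for DES and 0.059 for ACTA2. Under the same setting they were -1.73 for SGCA, -1.30 for PDLIM7, -1.29 for PYGM, -0.71 for LMOD1, -0.57 for CNN1 and -0.45 for TPM2. Under the 75th percentile scaling these 6 were -1.74, -1.31, -1.29, -0.80, -0.75 and -0.73. With array brightness as a covariate, an alternative chosen after seeing the data, the differences were -1.62 for SGCA, -1.01 for PDLIM7, -1.24 for PYGM, -0.83 for LMOD1 and -1.02 for CNN1. They were -0.27 for TPM2, -0.23 for ACTA2, -0.12 for DES and -0.10 for TAGLN, all nearer to 0 by over 1.5 times. Under cyclic loess, also added later, TPM2 was at -0.42, TAGLN at -0.42, DES at -0.49 and ACTA2 at -0.051. SGCA, PDLIM7, PYGM, LMOD1 and CNN1 thus moved by less than 1.5 times under these 3 settings, and the 4 brightest genes by more.

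**Figure D5:**
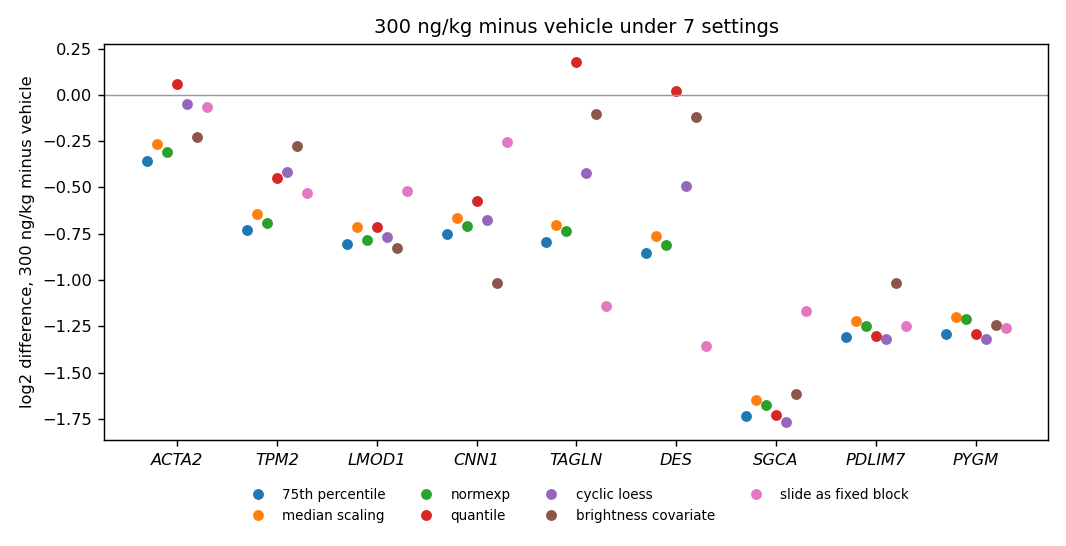
Log2 difference of 300 ng/kg minus vehicle (vertical axis) for each muscle gene under 7 settings, shown by colour. SGCA, PDLIM7 and PYGM lie at -1.01 or lower under all 7, whereas TAGLN, DES and ACTA2 lie above 0 under quantile normalization.

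The differences were also read within slides. Within slide 3, which held the 3 arrays of 300 ng/kg and 1 of 30 ng/kg, the difference between the doses was -1.18 for SGCA, -1.18 for PDLIM7, -1.16 for PYGM, -1.56 for DES, -1.39 for TAGLN and -1.12 for TPM2. In these 6 genes it thus had the same sign as over all slides. It was -0.48 for LMOD1, -0.023 for ACTA2 and 0.023 for CNN1. With a single 30 ng/kg array on the slide these values have no replicate check. That array was also dimmer (75th percentile 363 units) than the 300 ng/kg arrays beside it (1258 to 2374), so dose and brightness cannot be told apart there. With slide as a fixed block, which joins vehicle to 300 ng/kg through the 30 ng/kg arrays, the difference from vehicle was -1.17 for SGCA, -1.25 for PDLIM7 and -1.26 for PYGM. It was -1.36 for DES and -1.14 for TAGLN, further below 0 than without the block. It was -0.52 for LMOD1, -0.53 for TPM2, -0.25 for CNN1 and -0.068 for ACTA2, nearer to 0 than without the block. All these block values rest on the same dim 30 ng/kg array and on the 1 vehicle array of slide 2, since slide 1 held vehicle arrays only. With array brightness as a covariate in place of slide, DES was at -0.12 and TAGLN at -0.10.

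Within slide 2, which held 1 vehicle array and 2 of 30 ng/kg, the difference of 30 ng/kg from vehicle ran from -0.27 (CNN1) to 0.59 (TPM2), and was 0.0078 for SGCA.

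Single arrays carried weight. The brightest array, 300 ng/kg replicate 3, was the lowest of all 9 arrays for all 9 genes, and replicate 2 of that dose was the highest of its group for 6 genes and replicate 1 for 3. Without 300 ng/kg replicate 2 the adjusted p in limma was 0.0343 for SGCA (difference -1.73), 0.0288 for PDLIM7 (-1.57) and 0.0304 for PYGM (-1.71) against vehicle, with 364 probes called in all. With array weights SGCA (adjusted p in limma 0.0410) and PDLIM7 (0.0467) also passed, among 198 of 15160 tested probes. These weights ran from 0.377 (vehicle replicate 3) to 3.15 (vehicle replicate 1). Without 300 ng/kg replicate 3 every difference from vehicle was still below 0, from -1.65 (SGCA) to -0.18 (ACTA2). PYGM was then at -0.85 and PDLIM7 at -1.07, and the adjusted p in limma was 0.727 for SGCA, PDLIM7 and PYGM alike.

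Over the 9 arrays the genes followed different profiles. TAGLN, DES and TPM2 ran together, with r of 0.95 between TPM2 and each of the other two. LMOD1 and PYGM had an r of 0.95, PDLIM7 and PYGM 0.92, and SGCA and PDLIM7 0.89. CNN1 had an r of 0.14 with both DES and TAGLN and 0.89 with LMOD1. These are descriptions over arrays that share brightness and slide.

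Among 1149 other named genes, those with the profile most like each muscle gene were read off by Pearson's r over the 9 arrays. These genes have names only through the authors' table, which was selected on these same arrays for differences between the groups. That selection favours a high r, so the values are descriptions. For SGCA they were C20orf29 (0.97), LIX1 (0.96) and LAMA5 (0.95), and for PDLIM7 they were RABEP2 (0.98), TACR2 (0.97) and HSD17B1 (0.97). For PYGM they were TRPC6 (0.98), LOC163782 (0.95) and TOX (0.94), and for LMOD1 they were PCDHGA6 (0.96), LOC163782 (0.96) and TRPC6 (0.95). LOC163782 and TRPC6 were thus among the first 3 for both PYGM and LMOD1, 2 genes with an r of 0.95 between them. For TPM2 they were LOC712398 (0.99), CSAD (0.98) and STX1A (0.98). DES and TAGLN, with an r of 0.999 between them, had the same 3, ZNF297, MMP28 and NKX2-8, all with r of 0.99 for both genes. ACTA2 and CNN1 had the least close neighbours, HIF3A (0.82), CBX6 (0.81) and ARHGEF18 (0.79) for ACTA2, and KIAA0082 (0.94), HIF3A (0.90) and ARHGAP1 (0.89) for CNN1.

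Other genes of the same systems could be named only where the authors' table carried a symbol, so few members of each list were tested and those were selected on these arrays. Of 29 contractile filament genes, 9 were tested, and at 300 ng/kg against vehicle 5 had an unadjusted p under 0.05 in the lower and 1 in the higher direction, where all tested probes gave 8.17% and 7.38%. Besides the genes above, FLNC, a muscle filamin, stood at -0.89 ± 0.27 (SE) and MYL6, a myosin light chain, at -0.60 ± 0.24. TPM3, a tropomyosin also made outside muscle, stood at 0.85 ± 0.27, against the direction of TPM2.

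Of 29 sarcolemma and dystrophin complex genes, 2 were tested, SGCA and DYSF, and both had such a p in the lower direction. DYSF, which encodes the membrane-repair protein dysferlin, stood at -1.51 ± 0.58 (SE). With slide as a fixed block DYSF was at -2.38, and with array brightness as a covariate at -0.50.

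The adhesion plaque list of 26 genes had 4 tested, 2 in each direction. PDLIM7 and ZYX, the focal adhesion protein zyxin (-1.10 ± 0.34, SE), stood lower, and PDLIM1 (1.31 ± 0.36), a relative of PDLIM7, and LIMS1 (0.61 ± 0.23), an adaptor of integrin-linked kinase, stood higher. The PDZ-LIM genes PDLIM7 and PDLIM1 thus lay on opposite sides of vehicle. Of 19 glycogen genes, 3 were tested, 2 in the lower and 1 in the higher direction. PYGM and GYS1, the muscle form of glycogen synthase (-0.83 ± 0.21), stood lower, and PYGL, the liver form of the phosphorylase, stood higher (1.33 ± 0.31, or 0.38 with slide as a fixed block).

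Of 36 contraction signalling genes 2 were tested, PPP1R12C, a myosin phosphatase subunit (-0.98 ± 0.25, SE), and GUCY1A3, a subunit of the nitric oxide receptor guanylyl cyclase (0.98 ± 0.20, or 0.30 under normexp background correction). None of 24 regulators of smooth muscle genes could be tested. Adjusted p-values in limma for all these genes lay above the threshold. Without 300 ng/kg replicate 2, PDLIM1 (difference 1.71, adjusted p in limma 0.0255) and PPP1R12C (-1.22, 0.0359) passed, and with array weights PDLIM1, GYS1, PPP1R12C and GUCY1A3 passed, with adjusted p in limma of 0.0467 to 0.0489. From FLNC to GUCY1A3, each of these genes kept its sign at 300 ng/kg under all 22 alternatives run for it.

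Markers of other cells were read in the same way, as the sum over a list of signal relative to the 75th percentile. Of 31 skeletal muscle genes only ACTN3, the fast-fibre alpha-actinin, was tested, and it ran against DES, PYGM and SGCA: its summed level was 0.296 to 0.445 in the vehicle group, 0.437 to 0.464 at 30 ng/kg and 0.564 to 0.899 at 300 ng/kg. Of 8 fibroblast markers 2 were tested, the type I collagen genes COL1A1 (1.54 ± 0.41, SE, at 300 ng/kg against vehicle) and COL1A2 (0.75 ± 0.29). Their sum was 6.72 to 8.01, 5.93 to 8.52 and 10.8 to 20.0 in the 3 groups.

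The summed contractile filament genes lay at 1295 to 2139 in vehicle, 1338 to 2577 at 30 ng/kg and 771 to 1175 at 300 ng/kg. On this scaling the sum stood opposite to the collagens at the higher dose. The bright probes of TAGLN, DES, TPM2 and ACTA2 weigh most in it. Under quantile normalization TAGLN (0.18), DES (0.019) and ACTA2 (0.059) stood above vehicle at 300 ng/kg, and the sum was not run under that scaling. Of 11 luminal epithelium markers 3 were tested, with a sum of 626 to 950 in vehicle, 613 to 1956 at 30 ng/kg and 406 to 484 at 300 ng/kg, where saturated KLK3 spots make the sum a lower bound on some arrays. An unadjusted p under 0.05 at 300 ng/kg was found for 1 of these 3 in each direction. KLK3, which encodes prostate-specific antigen, stood at -1.18 ± 0.49 (SE) against vehicle, and TGM4, a prostate transglutaminase, at 8.87 ± 1.44. The KLK3 difference was -0.32 with array brightness as a covariate and -1.98 with slide as a fixed block. Its saturated spots make the KLK3 level itself a lower bound on those arrays. TGM4 passed the threshold in limma with array weights and without 300 ng/kg replicate 2 (10.8). Both were singled out after their values were seen, and the sum does not show that they lay on opposite sides of vehicle. Of 8 basal markers 2 were tested, with a sum of 4.53 to 6.96 in vehicle, 7.72 to 10.3 at 30 ng/kg and 5.96 to 6.35 at 300 ng/kg. An unadjusted p under 0.05 in the higher direction was found for 1 of them at either dose, and for none in the lower direction. The gene at 300 ng/kg, S100A2, was well above background on every array only in that group, and was tested only through it.

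Of the endothelial, leukocyte and nerve lists, 1 gene each was tested of 6, 8 and 6. Their levels were 0.916 to 1.22, 0.0146 to 0.0230 and 0.273 to 0.359 in vehicle, 2.19 to 3.04, 0.0146 to 0.0460 and 0.424 to 0.614 at 30 ng/kg, and 0.679 to 1.28, 0.0439 to 0.146 and 0.227 to 0.391 at 300 ng/kg. The collagen and leukocyte values thus lay above vehicle on all 3 arrays of 300 ng/kg and the endothelial and nerve values overlapped with it. Marker genes could be named only through the authors' table, which was selected on these same arrays. Groups of markers that do not overlap are therefore descriptions at either dose. The share of all tested probes lying wholly above vehicle is not given here. On all 3 arrays of 30 ng/kg the endothelial, nerve and summed basal values lay above vehicle, at a dose where the muscle genes overlapped with vehicle. The basal sum is carried by the brighter ITGB4, which differed from vehicle by 0.72 ± 0.24 (SE) at 30 ng/kg. The other basal marker, S100A2, went the other way (-0.69 ± 0.57) and overlapped with vehicle. The leukocyte gene, FCER1A, was well above background on 1 of 3 vehicle arrays. Only at 300 ng/kg was it so on every array, so it was tested only through the group in which it stood high. The part of a different make-up of the tissue in the muscle gene values was not tested.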

How the data were processed

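Total RNA from 9 prostates was measured on 9 Cy3 arrays, and the labelled dose gave 3 groups of 3 offspring. Per the file headers and the submitters' processing notes, images were read with Agilent Feature Extraction 9.5. The deposited processed signal is an intensity, background-subtracted and detrended per array, with no normalization between arrays. The authors' deposited table gives folds and log2 group means of 1502 probes chosen by 1-way ANOVA (p up to 0.05) and fold (1.5 or more). The method of its normalization is not stated in the sources read here, and 9 per-sample flag columns in it were left aside. The number of arrays limits the precision, with a median residual SD of 0.400 (log2).

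Spots flagged as outliers were left out unless both were flagged. Spots were averaged, divided by the 75th percentile of the array, floored at 5 units on the dimmest array, then log2-transformed. A probe was tested if every array of any 1 group had it well above background, and these 15160 probes entered limma 3.58.1 (R 4.3.3) with group as the only term, and p-values were 2-sided. The fit was tested on simulated data. Python 3.11.15 with pandas 2.3.3 and matplotlib 3.10.9 made the summaries.

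Every muscle gene with a probe is named. Each pathway list adds up to 4 further genes, taken by smallest p for 300 ng/kg against vehicle, and for likeness the 3 named genes with the highest r. Some genes that meet this rule are not reported here and were left out of the list counts. Symbols were planned to come from the table's symbol column, which holds accessions, so they were read from its descriptions: 1299 genes, of which 839 are in the macaque reference table. The muscle genes and lists were chosen with earlier results of these data known. The labels do not say whether offspring shared a dam, so p-values measure the spread between these animals. Alternatives were normexp on median signals with an offset of 50, quantile, median and cyclic loess scaling, other filters and floors, slide, replicate number or brightness in the fit, array weights, a fit on the compared groups alone, and each array left out. By correlation of deviations, vehicle and 30 ng/kg arrays of the same replicate number had r over 0.1 in 3 of 3 pairs. With 300 ng/kg either group had this in 1 of 3 pairs. These values do not establish a pairing: 30 ng/kg replicate 1 had r of 0.13 with vehicle replicate 1 and 0.15 with vehicle replicate 3. The part of array brightness in them was not tested. The labels give the numbers without saying what they share.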

Additional observations from a re-analysis of the deposited data

How the results depend on the processing

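Of 27 differences (9 muscle genes in 3 comparisons), 18 kept their sign under all alternatives run and 9 reversed under at least 1; in all, 14 of 624 alternative values reversed and 16 passed the threshold. Against vehicle at 300 ng/kg, quantile normalization gave 0.059 for ACTA2, 0.019 for DES and 0.18 for TAGLN. Between the doses it gave 0.53 for ACTA2, 0.016 for DES and 0.14 for TAGLN, and ACTA2 was also at 0.11 under normexp, 0.074 under median scaling, 0.28 under cyclic loess, 0.078 with brightness as a covariate and 0.065 without 300 ng/kg replicate 3 (-0.23 to 0.065 with an array left out). With slide as a fixed block CNN1 was at 0.023 between the doses and SGCA at 0.0078 at 30 ng/kg against vehicle, where PDLIM7 was at 0.022 without 30 ng/kg replicate 2 (-0.27 to 0.022 with an array left out). The cause was not tested. The median difference of all tested probes between the doses, -0.029, was 0.15 under median scaling, -0.48 under normexp and 0.092 under quantile normalization. Under normexp it was 0.26 at 30 ng/kg (0.021 without) and -0.22 at 300 ng/kg against vehicle (-0.0059 without).

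Probes called by limma numbered 0 in each comparison. At 30 ng/kg against vehicle there were 6 with slide as a fixed block and 0 to 1 with an array left out, the 1 without 30 ng/kg replicate 2. At 300 ng/kg against vehicle there were 198 with array weights and 0 to 364 with an array left out, the 364 without 300 ng/kg replicate 2. Between the doses there were 1 under quantile normalization, 3 under median scaling, 2 with slide as a fixed block, 2951 with array weights and 0 to 777 with an array left out: 777 without 30 ng/kg replicate 2, 247 without 300 ng/kg replicate 2 and 1 without vehicle replicate 1. Without 30 ng/kg replicate 2, SGCA, DES and TAGLN passed between the doses, and without 300 ng/kg replicate 2, PDLIM7 and PYGM did. With array weights 6 genes did, TPM2, SGCA, PDLIM7, PYGM, DES and TAGLN (adjusted p in limma 0.0207 to 0.0318), among 2951 of 15160 tested probes. An unadjusted p under 0.05 with a fold of at least 1.5 was met by 689, 2200 and 2882 probes in the 3 comparisons. With replicate number as a block the counts were 0, 0 and 1. With that block and only the compared groups in the fit, chosen after seeing the data, 0 were called in each. Between vehicle and 30 ng/kg the deviations of same-number arrays correlated at 0.13 to 0.54, over 0.1 in 3 of 3 pairs. This held in 1 of 3 pairs with 300 ng/kg on either side (-0.21 to 0.10 with vehicle, -0.26 to 0.10 with 30 ng/kg). Of 9 arrays, 4 correlated best with their own number, so whether the numbers pair any samples is not settled. The block changed no other call. The mean over a gene's probes was not run, since each muscle gene had 1 probe. Brightness as a covariate, cyclic loess and the single SGCA spot were chosen after seeing the data.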
